A study of Rattus norvegicus with 2 samples.

Results

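Run-on fragments and pre-mRNA fragments are single-exon transcript models that an assembler leaves beside or across known genes. In the transcript annotation of this rat femur series they carry 2 class codes from the comparison with a reference annotation. Class p marks a possible run-on, a model that touches no reference transcript and lies close past the end of a reference gene. Class e marks a single-exon model that covers part of a reference exon and part of the intron beside it. All transcripts with either code were taken, and the classes were kept apart. Class p had 190 members (0.438%) and class e had 60 members (0.138%) among 43391 transcripts of 16678 genes, so that the classes together made up 250 transcripts (0.576%).

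RNA polymerase II does not stop at the site where a messenger RNA is cut and polyadenylated. It goes on past that site, and the RNA it makes there is normally degraded within the nucleus. A transcript can also be longer than its annotated form when a polyadenylation site further downstream is used. Introns are removed from most transcripts while they are still being made, so reads over an intron come from RNA that is not yet spliced, from a retained intron or from genomic DNA. A class code is a statement on position alone and does not tell these sources apart.

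The study isolated total RNA from the femurs of female wild-type Wistar rats for sequencing. The labels used here give 1 sample per group, whereas the paper describes several sequenced rats per group. The samples are from a rat after bilateral ovariectomy (OVX), the operation that removes both ovaries and is used to model bone loss after menopause, and from a rat after a bilateral sham operation (SHAM), in which the ovaries are kept. Both labels give 16 weeks. The paper gives a shorter feeding time. A further label says old for the OVX rat and young for the SHAM rat, a difference in age of which the paper says nothing. RNA was extracted with TRIzol and the libraries were made with a SMARTER mRNA-Seq kit. The paper adds a DNase I treatment of the RNA against remaining DNA.

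The deposited files hold positions and attributes of transcript models for the whole series and no value per sample. The sequencing depth is therefore unknown from them, and OVX and SHAM could not be compared. Each model is recorded from 1 of 2 assemblies or from both, and neither assembly could be assigned to a rat or a group. The first assembly alone held 19314 transcripts, the second alone held 19181, and 4896 (11.3%) were in both. The files name their sequences by accession, and positions below are given as the files give them, on chromosomes assigned by the genes they carry. Percentages come with 95% Wilson intervals and medians with 95% order-statistic intervals. Fragments are not replicate animals, and the intervals speak of the transcript models alone.

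The 190 run-on fragments lay at 183 loci beside 178 reference genes, and none of the 60 class e fragments shared a locus with another. Run-on fragments were split evenly between strands, with 95 on each. They fell on 20 of the 21 chromosomes. Chromosome 1 had the most, with 25, and chromosome 16 had 0 beside 373 named genes. Per 1000 named genes, chromosome 8 had the highest number, 28.4 (20 fragments), and chromosome 9 had 6.05 (3 fragments), the lowest above 0. These are extremes among 21 chromosomes, from small counts and without intervals. The 20 fragments of chromosome 8 include overlapping pairs of Amotl1 and Arhgef12, described below. Class e fragments were found on all 21 chromosomes, with 6 on chromosome 1. No member of either class was on the authors' list of 1507 new genes. Many of the genes have provisional names only. The recorded gene carried a name of the form rCG for 79 of the run-on fragments (41.6%, 34.8 to 48.7) and for 28 of the class e fragments (46.7%, 34.6 to 59.1). The share of such names among all named genes was not counted, so they are not shown to be particular to these classes.

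The file records for each run-on fragment the reference gene it follows, and 164 of the 190 recorded genes (86.3%) had an assembled transcript here. Of these 164 fragments, 155 (94.5%) lay downstream of the assembled end of their recorded gene, 9 overlapped its assembled span and 0 lay upstream. The class code requires this side, so it is a check of the label and not a result. The code also requires the fragment to lie close past the reference gene, so short gaps are in part fixed by it. The gaps given here run to the assembled end, which can differ from the reference end. The counts by gap below describe the label and are not a result on these genes. The median gap downstream of the assembled gene end was 1069 bp (824 to 1335, range 13 to 36567, n = 155). Within 500 bp lay 43 fragments (27.7%), within 1000 bp 74 (47.7%), and within 2000 bp 126 (81.3%). Only 29 (18.7%) lay further away, and 9 of the 155 were beyond 5000 bp. The values on either side of 2000 bp were 1984 and 2012 bp.

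**Figure D1:**
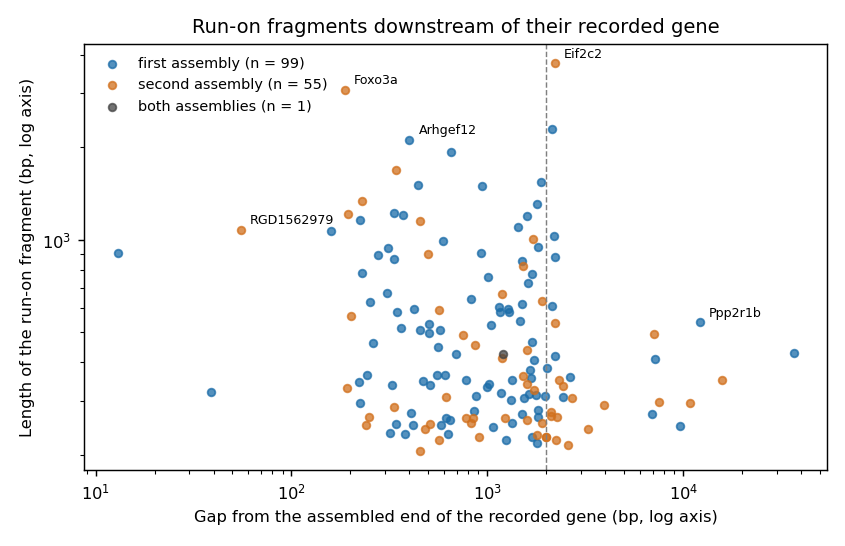
Length of each run-on fragment (bp, log axis) against its gap from the assembled end of its recorded gene (bp, log axis), for the 155 fragments downstream of an assembled gene. Colour gives the assembly, and the dashed line stands at 2000 bp. Most points lie between about 200 and 2000 bp from the gene end, a closeness that the class code in part requires. The longest fragments, Eif2c2 and Foxo3a, lie at 2206 and 187 bp.

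When the source was taken instead as the nearest named gene on the same strand, it was the recorded gene for 159 fragments (83.7%) and another gene for 31. By this rule 166 fragments (87.4%, 81.9 to 91.4) lay downstream of their source, 13 upstream and 11 over its span, at a median gap of 1241 bp (928 to 1523). The 31 fragments with another source had a median gap of 94021 bp, and 16 of them were downstream and 13 upstream. For 26 of the 31 the recorded gene had no assembled transcript, and for 5 another gene was nearer. The upstream placements by this rule therefore all belong to fragments whose recorded gene is not the nearest assembled one.

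Run-on fragments were short, as were other single-exon models. Median lengths were 261 bp within introns and 331 bp between genes, against 873 bp for models that match a reference transcript. The shortest models within introns and between genes had 200 bp, so the lengths of run-on fragments are seen above a similar lower limit. The median length was 350.5 bp (331 to 418, range 204 to 3758), 64 (33.7%) were under 300 bp and 24 (12.6%) were over 1000 bp. The longest belonged to Eif2c2, now named Ago2, the Argonaute protein that cuts target RNA in the silencing complex. It spans 3758 bp on the minus strand of chromosome 7 (101433118 to 101436875), 2206 bp past the assembled gene, and comes from the second assembly. Next was Foxo3a, now Foxo3, a forkhead transcription factor under the control of insulin signalling. Its fragment spans 3080 bp on the plus strand of chromosome 20 (54290267 to 54293346) and starts 187 bp past the gene, also in the second assembly. The provisional gene rCG_40518 had a fragment of 2297 bp on chromosome 1 at 2135 bp. Arhgef12, an exchange factor for the GTPase RhoA, had a fragment of 2121 bp on chromosome 8 at 400 bp. RGD1310799, now Fam53b, had a fragment of 1938 bp on chromosome 1 at 650 bp. The last 3 come from the first assembly.

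Among fragments that did not overlap their source, those nearest to it belonged to rCG_44182 on chromosome 17 (909 bp long, gap 13 bp), rCG_63295 on chromosome X (320 bp long, gap 39 bp) and RGD1562979 on chromosome 14. RGD1562979 is now Ikzf1, the zinc finger factor Ikaros of lymphoid cells. Its fragment is 1079 bp long and begins 55 bp past the gene (85343412 to 85344490, plus strand). The fourth, 533 bp long, lay 123 bp upstream of rCG_59575 but is recorded for Tob2, which restrains proliferation, and lay 504 bp downstream of that gene. The fifth belonged to rCG_46329, 1067 bp long at 159 bp.

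The largest gaps by the nearest-gene rule arose where the recorded gene was not assembled. A pair of fragments recorded for Olr560, an odorant receptor gene, lay 2470625 and 2471354 bp downstream of Agtrl1 on chromosome 3. Fragments recorded for rCG_41030, rCG_44388 and rCG_64196 lay 957662, 887095 and 703564 bp upstream of their nearest named gene. Against assembled recorded genes the largest gap was 36567 bp, for rCG_59709 on chromosome 7. It was followed by rCG_42736 at 15691 bp and by Ppp2r1b, a scaffold subunit of protein phosphatase 2A, at 12130 bp.

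Several recorded genes act in insulin and growth factor signalling, and they are described here after their values were seen, from no preset list. Insr, the insulin receptor, had a fragment of 467 bp at 1692 bp (chromosome 12, 3052466 to 3052932, minus strand). Phosphoinositide 3-kinase signalling was represented by Pik3r5, named RGD1563261 in the file and a regulatory subunit of phosphoinositide 3-kinase gamma (530 bp long, gap 1040 bp), and by Pik3ap1, an adaptor of the same pathway in B cells (1153 bp long, gap 451 bp). Tsc1, which restrains the kinase mTOR, had a fragment of 596 bp at 1276 bp. Rps6kb1, the ribosomal S6 kinase that mTOR activates, had a fragment of 224 bp at 2245 bp. Gsk3b, a kinase inhibited by insulin and Wnt signals, had a fragment of 337 bp at 507 bp. With Foxo3, described above, the gaps of these 7 genes ran from 187 to 2245 bp, and 4 of the 7 fragments came from the first assembly only. Over all run-on fragments, 111 of 190 (58.4%) came from the first assembly only. How many of all named genes act in this signalling was not counted, so the group is not shown to be particular to run-on fragments.

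A further group carries signals from receptors at the cell membrane. The adaptor genes Gab2, Crk and Crkl had fragments of 312, 266 and 259 bp at 1769, 1820 and 646 bp. Cbl, named RGD1561386 and a ubiquitin ligase that takes activated receptors out of service, had a fragment of 942 bp at 310 bp. Acvr1b, a type I receptor for activins, had fragments of 294 bp at 225 bp and of 271 bp at 1506 bp. Prkca, protein kinase C alpha, had a fragment of 278 bp at 854 bp, and Cdc42, a GTPase of the actin cytoskeleton, had a fragment of 263 bp at 774 bp. Fragments of transcription and cell cycle genes included those of Klf13 (824 bp at 1523 bp), E2f3 (406 bp at 1724 bp) and Cdk6 (437 bp at 1593 bp). Among genes of the response to stress in the endoplasmic reticulum, Atf6, a sensor of unfolded protein, had a fragment of 949 bp at 1807 bp. Sel1h, now Sel1l, part of the machinery that removes such protein, had a fragment of 910 bp at 928 bp.

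Lists of marker genes for the cell types of a femur were used to describe the sources, with no test. The osteoblast and osteocyte list had 15 of 16 genes assembled and the bone and cartilage matrix list 19 of 20. The neutrophil and myeloid list had 13 of 16, the erythroid list 11 of 16, the B cell list 12 of 14, the osteoclast list 8 of 16, the skeletal muscle list 12 of 20 and the ribosomal protein list 2 of 20. Genes of bone, marrow and muscle were thus all present in the assemblies. These counts say only which names were found among the assembled genes. They are no measure of RNA level or of cell number, since few ribosomal protein genes, which every cell uses, were found. Over all 12568 named genes, 155 (1.23%) were the recorded gene of a run-on fragment. Among the 92 listed genes that were assembled, those found with a run-on fragment were Itgam and Cxcr2, both on the neutrophil and myeloid list. Itgam, the alpha chain of the integrin Mac-1, had a fragment of 246 bp at 1069 bp (chromosome 1, 180356457 to 180356702, plus strand). Cxcr2, a receptor for neutrophil-attracting chemokines that the file names Il8rb, had a fragment of 776 bp at 1685 bp (chromosome 9, 73315865 to 73316640, plus strand). Both came from the first assembly. No match was found for the other 7 lists or for class e. The lists are matched by symbol, and 85 run-on fragments and 31 class e fragments have a recorded gene that matches no symbol and could not be checked. With 2 matches among 92 genes, nothing is read from the lists beyond these names.

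The genes that run-on fragments followed were compared with all 12568 named genes. Of the 155 assembled genes, 137 (88.4%, 82.4 to 92.5) had transcripts in both assemblies, against 9617 of all named genes (76.5%, 75.8 to 77.3). A transcript that matched a reference transcript, single-exon matches included, was present for 69 (44.5%, 36.9 to 52.4), against 4848 (38.6%, 37.7 to 39.4), where the intervals overlap. They had a median of 3 transcripts against 2, and a median span of 31291 bp (19580 to 43168) against 14150 bp (13662 to 14597). Genes with a run-on fragment thus had longer assembled spans and were more often seen in both assemblies, and the part of the span in this was not tested.

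Although the genes were seen in both assemblies, the fragments rarely were. The first assembly alone held 111 (58.4%), the second alone held 77 (40.5%), and 2 (1.05%, 0.289 to 3.76) were recorded in both. Among other single-exon models the share in both was 1.34% within introns, 1.07% for those contained in a reference transcript and 6.23% between genes, so a share this low was not particular to run-on fragments. The 11.3% of all transcripts includes models that match a reference transcript, of which 61.4% of the single-exon ones were in both. By the nearest-gene rule, the source gene was assembled in the same assembly as the fragment for 182 of the 190 (95.8%). In the other assembly it was assembled for 175 (92.1%). That rule takes assembled genes only, so high shares are in part built in. For 31 fragments this source is not the recorded gene, and for 26 the recorded gene had no assembled transcript. The fragments recorded in both belong to provisional genes. The fragment of rCG_63092 is 425 bp long, on the minus strand of chromosome 17 (53741082 to 53741506), 1197 bp past its gene. The fragment of rCG_63457 is 301 bp long, on the minus strand of chromosome 6 (86337466 to 86337766). Its recorded gene was not assembled, and the nearest named gene, rCG_62341, ends 16277 bp before it.

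Overlap on the same strand is a looser measure than identity. By this measure 26 run-on fragments (13.7%, 9.51 to 19.3) were seen in the other assembly, counting the 2 recorded in both. In 14 the overlapping model was another run-on fragment, which makes 7 pairs. In all, 12 genes had 2 run-on fragments and 0 genes had more. Of the 12 pairs, 9 were split between the assemblies, and 7 of these 9 overlapped. For Psme3, a regulator of the proteasome, the fragment of 340 bp in the first assembly lay wholly within that of 1216 bp in the second. For Ddef1, now Asap1, which acts on Arf GTPases, the fragment of 360 bp in the second assembly lay wholly within that of 543 bp in the first. Amotl1, a scaffold at cell junctions, had fragments of 1102 and 1687 bp that shared 597 bp, and those of Arhgef12, 2121 and 634 bp long, shared 611 bp. In these overlapping pairs the boundaries differed between the assemblies.

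In the 3 pairs within the first assembly, the fragments were separate. Those of Acvr1b were 987 bp apart, those of Xpo7, a nuclear transport receptor, 736 bp, and those of rCG_34423 200 bp. The remaining 2 pairs, of Incenp and Olr560, had 1 fragment in each assembly with 368 and 381 bp between them.

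**Figure D2:**
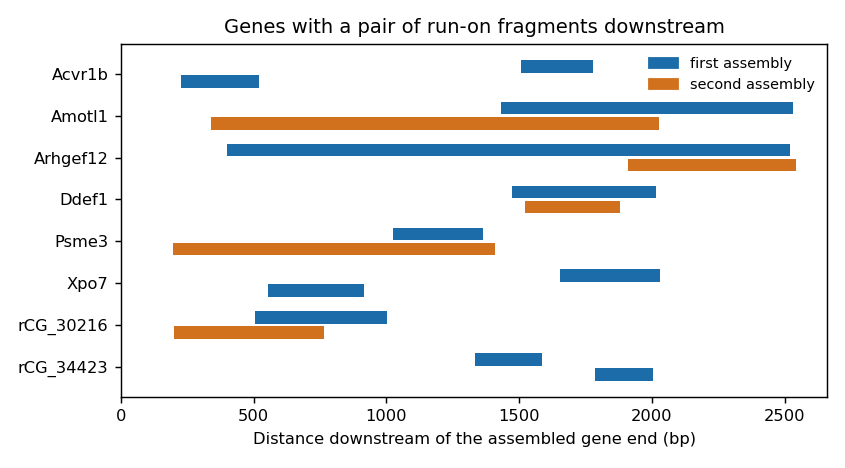
Run-on fragments of the 8 genes that had a pair of them with both downstream, drawn to scale from the assembled end of the gene at 0 (distance in bp). Each bar is a fragment, coloured by assembly. The bars of Amotl1, Arhgef12, Ddef1, Psme3 and rCG_30216 overlap across assemblies, and those of Acvr1b, Xpo7 and rCG_34423 are separate within the first assembly.

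For 10 run-on fragments the overlapping model in the other assembly was of another class, and in 8 of these it belonged to the recorded gene itself. In 9 of the 10 the overlap touched the last exon of that model. For Cbl 706 bp were covered and the last exon holds 111 bp, so the overlap reached the other exon too. In all, 5 fragments were wholly covered by that model, and of these the fragment of rCG_54600 did not meet the last exon. Pde5a, the phosphodiesterase that breaks down cyclic GMP, had a fragment of 1775 bp in the first assembly, covered by a last exon of 3887 bp in the second. The fragments of Bcl2l13, a mitochondrial protein of the Bcl-2 family, and of Incenp, a part of the chromosomal passenger complex, were also covered completely, at 279 and 331 bp. Ap2a2, a subunit of the clathrin adaptor AP-2, had 86.6% of its 687 bp covered, and Stard7, a lipid transfer protein, 41.5% of its 1040 bp.

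In these 8 cases a stretch that was a separate piece past the gene in 1 assembly was part of the gene's own transcript in the other. The other 2 fragments were covered by different models. That of Cbl was covered over 74.9% by an unnamed model of 2 exons, and that of rCG_54600 completely by a transcript of Cic. Of the 10, 7 came from the second assembly and 3 from the first.

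Run-on fragments of neighbouring genes faced each other in 2 places, counting fragments on opposite strands whose starts lay within 10000 bp. On chromosome 8 the fragment of Mcam, an adhesion protein of vessel walls, ended 3446 bp before that of Cbl on the other strand (44075970 to 44076848 plus, 44080295 to 44081236 minus). Both came from the first assembly. On chromosome 14 the fragments of rCG_23325 and rCG_23337 occupied the same stretch on opposite strands (94013134 to 94013622 plus, 94013136 to 94013598 minus). The 463 bp of the minus-strand fragment lay wholly within the other. The plus-strand fragment came from the second assembly and the other from the first. Single-exon models hold no splice site that fixes their strand, and whether this pair comes from the same RNA was not tested. More widely, 17 run-on fragments (8.95%, 5.66 to 13.9) overlapped a transcript on the opposite strand. Among other single-exon models this share was 17.3% between genes, 9.26% for those that match a reference transcript and 5.68% within introns.

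The gene order of the rat GRCr8 annotation, used for neighbours only, showed 3 recorded genes whose next gene past the 3′ end codes for a microRNA, among 79 recorded genes for which the order could be read (3.80%). Among all named genes the same held for 25 of the 6244 for which the order could be read (0.400%). This feature was looked for after other values had been seen and was not tested. Eral1, a GTPase of the mitochondrial ribosome, is followed by Mir451a on the opposite strand, whose product is known from red blood cell precursors. Its run-on fragment is 315 bp long on the minus strand of chromosome 10 (61939126 to 61939440), 1635 bp past the gene, in the first assembly. Tmem49, now Vmp1, which takes part in autophagy, is followed by Mir21 on the same strand. Its fragment is 264 bp long on the minus strand of chromosome 10 (70324780 to 70325043), 848 bp past the gene, in the second assembly. Rnf24, a RING finger protein, is followed by Mir103a2 on the opposite strand. Rnf24 had no assembled transcript, and its fragment is 246 bp long on the minus strand of chromosome 3 (117329931 to 117330176). The nearest assembled named gene to this fragment on either strand was Pank2, 6494 bp away on the opposite strand. Whether Pank2 lies nearer to Rnf24 than Mir103a2 does was not determined. The case of Rnf24, and with it the count of 3, is therefore not settled.

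A mature product of each microRNA gene, the arm better known as its main product, was taken from RefSeq on GRCr8. They are written 5′ to 3′ with the seed in capitals (bases 2 to 8), and they are shown because that gene order places them next to these genes. The other arm of each hairpin is not printed. The 3 seeds differ. Whether a hairpin lies within a fragment was not determined, since no genome of the build of the files was used.
rno-miR-451-5p: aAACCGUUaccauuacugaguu
rno-miR-21-5p: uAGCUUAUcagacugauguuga
rno-miR-103-3p: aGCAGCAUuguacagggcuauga

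Class e fragments were of similar length, with a median of 373.5 bp (291 to 467, range 202 to 3431). Of the 60, 24 (40%) were under 300 bp and 9 (15%) over 1000 bp. The first assembly held 32 and the second 28. None of the 60 was recorded in both, which by the Wilson interval allows a share of up to 6.02%. By overlap, 20 (33.3%, 22.7 to 45.9) were seen in the other assembly. An opposite-strand transcript overlapped 10 (16.7%, 9.31 to 28.0), against 17.3% of single-exon models between genes and 5.68% of those within introns.

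The longest class e fragment belonged to Mgll, monoglyceride lipase, which breaks down the endocannabinoid 2-arachidonoylglycerol. It spans 3431 bp on the plus strand of chromosome 4 (110243950 to 110247380), in the first assembly, and begins 1481 bp past the spliced Mgll transcript. It was followed by LOC304361 (2177 bp), Egfl5, now Megf9 (1847 bp), rCG_55406 (1508 bp) and rCG_49122 (1362 bp).

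By its definition a class e fragment covers exon and intron of a reference transcript, but the spliced models that would show the same in these files were often absent. For 23 of the 60 genes (38.3%, 27.1 to 51.0) the fragment was the only model assembled under that name, 13 in the first assembly and 10 in the second. Of these 23 genes, 17 have provisional rCG names, a share not set against that of all named genes. The others include Slc3a1, a subunit of the transporter for cystine and dibasic amino acids (478 bp), Tbx18, a T-box transcription factor (310 bp), and Twistnb, now Polr1f, a subunit of RNA polymerase I (236 bp). They also include the histone genes Hist1h4b (371 bp) and Hist1h2bn (467 bp). Only 8 of the 60 source genes (13.3%, 6.91 to 24.2) had a transcript that matched a reference transcript, against 38.6% of all named genes. Single-exon matches are included in the share of all named genes. The source was assembled elsewhere in the same assembly for 32 of the fragments (53.3%) and in the other for 33 (55%).

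The histone genes lie on chromosome 17, where 4 members of both classes fell within 272454 bp (53708725 to 53981178). They were the class e fragments of Hist1h2bn, rCG_23099 and Hist1h4b, which are all 3 class e fragments of the chromosome, and the rCG_63092 run-on fragment that both assemblies held. This run-on fragment and that of rCG_23099 lay 1854 bp apart on opposite strands. Histone genes of this kind are known to lack introns, and class code e was given to the models of both.

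Of the 36 genes with a spliced transcript, the fragment overlapped the spliced span in 22. It lay downstream in 8, at a median of 1568 bp (range 317 to 6815), and upstream in 6, at a median of 6978.5 bp (range 379 to 27417). Downstream fragments included those of Mettl7a at 317 bp, Vash1, an enzyme that trims tubulin and restrains vessel growth, at 1655 bp, and Epha1, an ephrin receptor, at 5404 bp. Upstream fragments included those of Rgs18, a regulator of G-protein signals in platelets and marrow cells, at 379 bp, and G3bp2, a stress granule protein, at 3495 bp. Cdc37, a partner of Hsp90 for kinases, followed at 7453 bp and Axin1, the scaffold of the complex that degrades beta-catenin, at 27417 bp. The assembled transcripts of these genes may be incomplete, so a fragment outside the assembled span can still lie within the reference gene.

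In 16 of the 60 (26.7%, 17.1 to 39.0) the fragment covered an intron of an assembled transcript, and in 6 others it met exons only. Of the 16, 5 came from the first assembly and 11 from the second. Intron bases made up a median of 69.1% of the length (36.3 to 100), with a median of 192.5 bp of intron (range 11 to 476). In 12 the fragment joined exon and intron. Szrd1, named RGD1560286, had 63 bp of exon and 288 bp of intron, and Sdr39u1, named RGD1309307, had 57 and 239 bp. Ptpn14, a tyrosine phosphatase that acts on Hippo signalling, had 40 bp of exon and 197 bp of intron. Adcy4, an adenylyl cyclase, had 85 and 171 bp, Gpt2, the mitochondrial alanine aminotransferase, 101 and 190 bp, and Nek1, a kinase of the primary cilium, 98 and 150 bp. In contrast, the fragment of Megf9 held 1734 bp of exon and 70 bp of intron, and that of Zfyve1, a lipid-binding protein of the endoplasmic reticulum and Golgi, held 250 and 11 bp.

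In 4 fragments every base was intron of the assembled transcripts, so the exon part that the class code implies was not seen in them. They belonged to Slc16a10, a transporter of aromatic amino acids (476 bp), Cacybp, a partner of the ubiquitin ligase Siah1 (252 bp), Usp15, a deubiquitinase (248 bp), and rCG_32727 (241 bp). The first or the last intron of an assembled transcript was touched in 13 of the 16 (81.3%, 57.0 to 93.4). An end intron of any assembled transcript of the gene counted, which raises this share. No share was taken for other intron stretches, so no preference for end introns is read from it. An end intron of an assembled transcript is not always that of the reference gene, because assembled chains may be fragments.

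**Figure D3:**
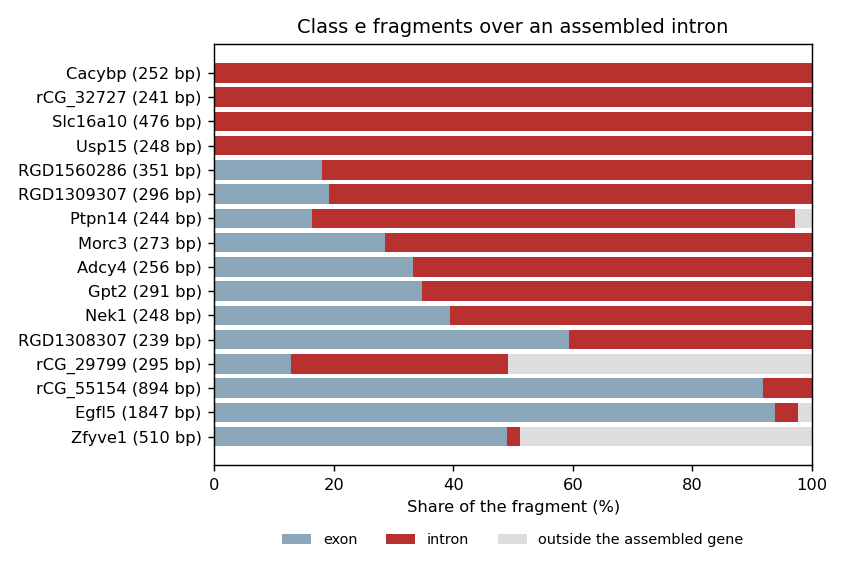
Share of each class e fragment (%) that is exon, intron or outside the assembled gene, for the 16 fragments over an assembled intron, with fragment length in bp beside each name. Cacybp, rCG_32727, Slc16a10 and Usp15 are intron throughout, and Zfyve1, Egfl5 and rCG_55154 have the smallest intron shares.

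The file recorded both kinds of fragment for 2 genes. For rCG_31698 on the plus strand of chromosome 8, the class e fragment of 421 bp was followed after 606 bp by a run-on fragment of 364 bp, both in the first assembly. For rCG_61101 on the minus strand of chromosome 20, the class e fragment of 239 bp was followed after 2332 bp by a run-on fragment of 349 bp, both in the second assembly. In both genes the class e fragment was the only model with the gene's name, so the gap was measured between fragments. By the nearest-gene rule Ptpn14 also had both kinds, since a pair of run-on fragments recorded for rCG_63264 lay 607194 and 607316 bp upstream of it.

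Both classes were set beside the other single-exon transcripts, of which there were 3882 (8.95% of all). The share seen in the other assembly by same-strand overlap ran from 3.68% (2.75 to 4.90) of 1197 models within an intron to 61.6% (58.3 to 64.9) of 842 models that match a reference transcript. Run-on fragments, at 13.7% (9.51 to 19.3), were close to the 738 single-exon models between genes at 12.2% (10.03 to 14.8), with overlapping intervals, and above the models within introns. Class e fragments, at 33.3% (22.7 to 45.9), were above run-on fragments and close to models with another exon overlap at 31.0% (19.1 to 46.0). Among the class codes plotted, those that by definition lie over a reference exon on the same strand had larger shares than the others. Reproducible recovery was measured only as overlap of models, and coverage was not used here.

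**Figure D4:**
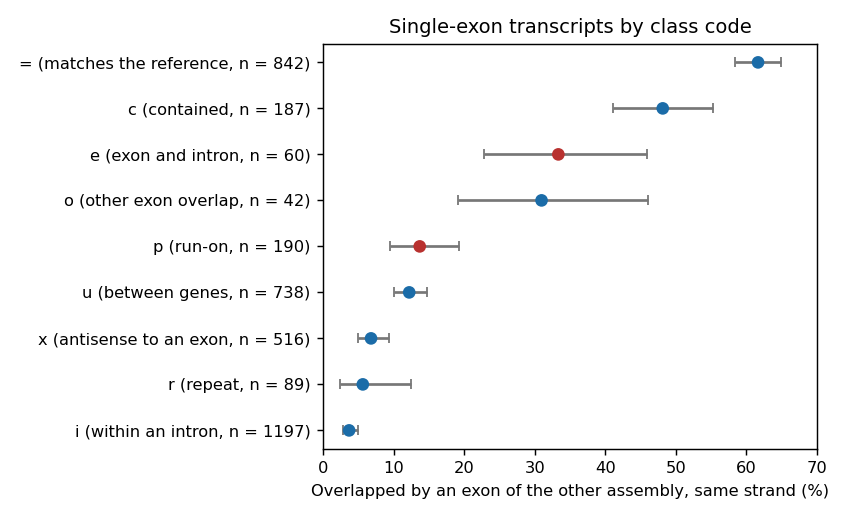
Share of single-exon transcripts (%) overlapped on the same strand by an exon of the other assembly, for 9 class codes with their numbers of transcripts. Points are shares and bars 95% Wilson intervals, with the classes p and e in red. Class p stands at 13.7%, next to models between genes at 12.2%, and class e at 33.3%.

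Length also differed between the assemblies. Run-on fragments of the first assembly had a median of 428 bp (358 to 533, n = 111) and those of the second 297 bp (267 to 335, n = 77). Class e fragments had 468 bp (371 to 720, n = 32) and 289 bp (248 to 351, n = 28). The intervals did not overlap in either class. The same order held for all single-exon transcripts together, at 381.5 bp (368 to 410) and 276 bp (270 to 282), but not for those that match a reference transcript, at 611 and 912 bp with overlapping intervals. The gap of run-on fragments past their gene was 995 bp (630 to 1289, n = 99) in the first assembly and 1521 bp (774 to 1910, n = 55) in the second, with overlapping intervals. Depth per assembly is unknown.

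**Figure D5:**
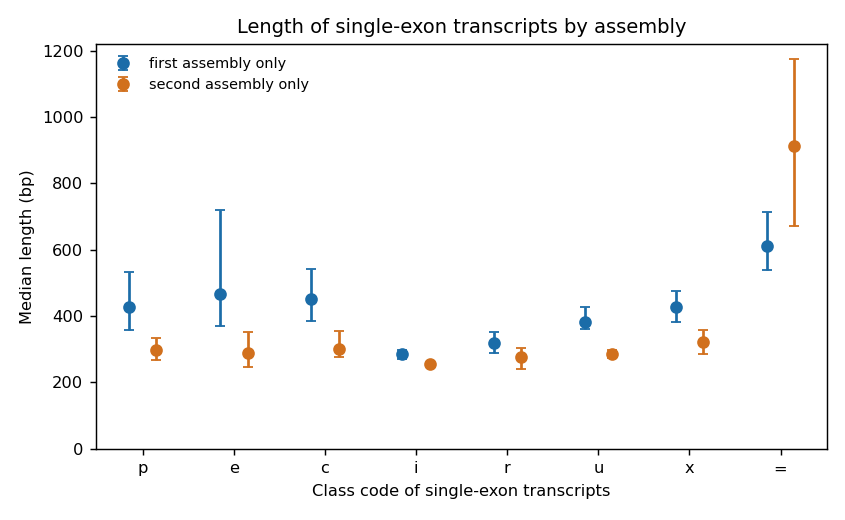
Median length of single-exon transcripts (bp) found in the first assembly only and in the second only, by class code. Bars are 95% order-statistic intervals. In classes p and e the first assembly lies higher, at 428 and 468 bp against 297 and 289 bp.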

How the data were processed

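The authors sequenced RNA of rat femurs. Per the labels, reads were checked with FastQC, aligned with HISAT2, assembled with StringTie and counted with featureCounts. The notes name the build rn4, versions are not given in the sources used here, and it was not established that the positions are on rn4. The deposited files give start and end positions of models, with their attributes, and no other unit. No count or coverage was used, so depth is unknown.

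Members and gene lists were chosen with earlier results of these data known. Class codes were read from the transcript lines, and the assembly from the numbering and the recorded number of assemblies. Gaps were counted between the fragment and the furthest end of all assembled transcripts of a gene. In class e, bases in an exon of any spliced transcript of the gene counted as exon. Names were matched to current or older GRCr8 symbols. A recorded gene matched for 105 of 190 class p and 29 of 60 class e members.

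Named genes are those of members in both assemblies, the 5 longest, the 5 nearest and 5 furthest class p members, genes with both classes and genes on the lists. Gene examples beyond this rule were chosen after their values were seen. Overlapping members are described apart from the nearest. The values of 1 overlapping member are not reported here. No test was run. Python 3.11.15, numpy 2.4.6, pandas 2.3.3 and scipy 1.17.1 were used, and the scripts were tested on simulated data.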

Additional observations from a re-analysis of the deposited data

How the results depend on the processing

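Of 25 alternative settings, 16 moved their value by less than its interval or, for counts, less than 1.5 times. With transcripts of at least 300 bp only, run-on fragments numbered 126 with a median of 534 bp, and class e fragments 36 with a median of 562.5 bp, because shorter ones are left out. Requiring both assemblies left 2 run-on and 0 class e fragments. After overlapping run-on fragments were merged, 9 of 183 regions (4.92%) were in both assemblies. With the recorded gene as source, an alternative chosen after seeing the data, 94.5% lay downstream. With only spliced transcripts that match a reference transcript, 4 class e fragments were left over an intron. The share of these that touched the first or last intron was 100%, again with no share of other intron stretches beside it. Depth is unknown, so a fragment missing from an assembly is not shown to be missing from the RNA. Single-exon models hold no splice site that fixes their strand, and whether the libraries kept strand is not given in the sources used here. No paired analysis was possible because no value belongs to a sample.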
